A study of Bos taurus with 3 samples.

Results

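The family of miR-148 and miR-152 was described in the small RNA of bovine milk-derived extracellular vesicles (BM-EVs), the membrane-enclosed particles that milk carries. Its 5 entries were taken by name from the tables of mature miRNAs, out of 745 miRNAs listed in at least 1 library. They were bta-miR-148a, bta-miR-148b and bta-miR-152, which belong to a single seed family, and bta-miR-148c and bta-miR-148d, which are annotated on the opposite strand at the positions of miR-152 and miR-148a. The BM-EVs came from purchased, pasteurized, skimmed bovine milk and were isolated by acidification followed by salting-out with ammonium sulfate. The labels describe the milk as normal and untreated, and all 3 libraries belong to this single condition. No second condition was sequenced to set against it, and the results are levels and the differences among these libraries. As biological replicates of the isolated BM-EVs, the study took milk samples that differed in expiration date. The sources used here do not say which of them gave each library, nor how many cows are behind a carton, so any spread between libraries may be biological or technical.

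MiRNAs are short RNAs that guide Argonaute proteins to messenger RNAs, and the seed near their 5′ end sets most of the pairing. MiR-148a, miR-148b and miR-152 share their seed and so have overlapping targets, of which the maintenance DNA methyltransferase DNMT1 is the best known in human and mouse cells. MiR-148a is known as an abundant miRNA of liver and of milk in several mammals. In the RefSeq annotation of cattle, all 5 entries had a gene. The gene of miR-148a overlapped that of miR-148d and lay in no other gene, with NFE2L3 and NPVF as the nearest protein-coding genes. The gene of miR-148b lay within COPZ1. The genes of miR-152 and miR-148c overlapped each other within COPZ2. COPZ1 and COPZ2 encode the zeta subunits of coatomer, the coat of vesicles that move between Golgi and endoplasmic reticulum.

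Counts are of unique molecular indices (UMIs), tags that mark a molecule before PCR, so that its copies are counted once. The mature miRNA counts summed to 77225, 373239 and 102058 UMIs in libraries 1, 2 and 3, and each share given here is a percentage of that sum. The lowest listed count was 11 UMIs, so an unlisted miRNA had at most 10 UMIs and is not known to be absent. A count of 10 UMIs corresponds to a share of 0.0129%, 0.00268% and 0.00980% in libraries 1, 2 and 3, so the same rare miRNA is measured most finely in library 2. Lists of marker miRNAs were chosen with earlier results of these data known, so their sums describe the libraries and do not check the labelled source. All 7 miRNAs of a list of epithelial miRNAs were listed in every library and summed to 5.32% ± 1.06 (SD, n = 3 libraries). This list was led by miR-200c (3.33%), miR-141, miR-200a and miR-200b, while miR-429 (0.0713%) and miR-205 (0.0163%) were its lowest. The leukocyte list, of which 5 of 7 miRNAs were listed in every library, summed to 0.281% ± 0.0923. It was led by miR-223, miR-155, miR-150 and miR-146b, while miR-142-3p (0.00609%) and miR-146a (0.00740%) were its lowest. The erythrocyte list, of which miR-486 alone was listed and miR-451 and miR-144 were not, summed to 0.0242% ± 0.0124. The muscle list, of which miR-1 alone was listed in every library, summed to 0.0217% ± 0.0156. MiR-133a (0.00561% ± 0.00972) and miR-206 (0.00392% ± 0.00679) were not listed in every library, and each had an SD above its mean.

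MiR-148a held most of the molecules of the 5 entries, with 81.5%, 88.5% and 86.2% of their UMIs in libraries 1, 2 and 3. It had 4053, 21175 and 4709 UMIs. These counts were 5.25%, 5.67% and 4.61% of the mature UMIs, with Wilson 95% confidence intervals of 5.09 to 5.41%, 5.60 to 5.75% and 4.49 to 4.74%. The intervals, which cover counting error only, did not overlap, and the library with the highest share was library 2. In these bulk libraries, fewer vesicles with a miRNA and fewer copies per vesicle cannot be told apart. MiR-148a ranked the fourth of 507 listed miRNAs in library 1 and the third of 622 and of 628 in libraries 2 and 3. Its count was 162, 694 and 181 times the median count of a listed miRNA in libraries 1, 2 and 3. In library 1 it was equal to or above the sum of the 255 least abundant listed miRNAs, and in libraries 2 and 3 to that of the 525 and 291 least abundant ones. Let-7a-5p, the next miRNA above it by mean share, was higher in each library. MiR-148a had more UMIs than miR-3596, the next below, in 2 of 3 libraries (p = 0.75 by the exact sign permutation test, two-sided). In library 1 miR-3596 was higher, with 5099 against 4053 UMIs, so the order of these 2 miRNAs was not resolved.

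Among the 3 miRNAs of the seed family, the paralogs of miR-148a were minor. MiR-148a made up 98.8%, 98.9% and 98.0% of their summed UMIs in libraries 1, 2 and 3. The sum of the 3 was 4102 UMIs (5.31%), 21401 UMIs (5.73%) and 4805 UMIs (4.71%). With miR-148c and miR-148d, the 5 entries held 6.44%, 6.41% and 5.35%, or 6.07% ± 0.619 (SD, n = 3 libraries). Entering miR-152 at its limit of 10 UMIs in library 1 raised the share of the 5 there to 6.45%.

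**Figure D1:**
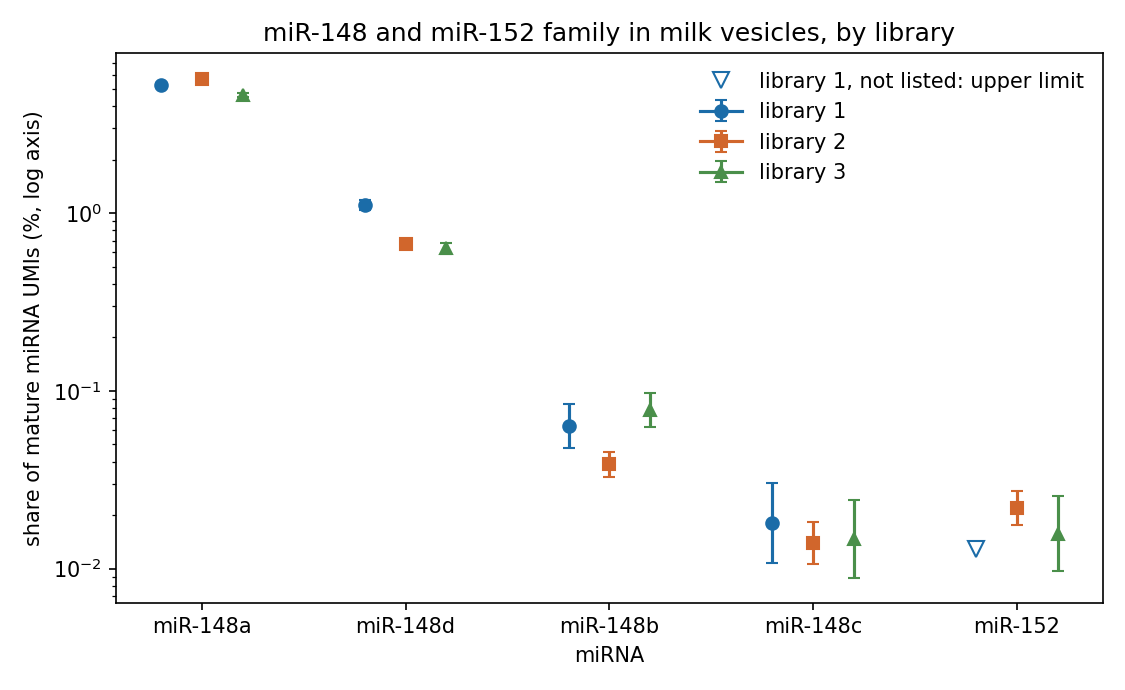
Share of the mature miRNA UMIs (percent, log axis) for the 5 entries in libraries 1 to 3, with Wilson 95% confidence intervals that cover counting error only. The open triangle is the upper limit of 0.0129% for miR-152 in library 1, where it was not listed. MiR-148a lies between 4.61% and 5.67%, and miR-148b, miR-148c and miR-152 lie at or under 0.0784%.

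MiR-148b, the member within COPZ1, had 49, 144 and 80 UMIs in libraries 1, 2 and 3. Its shares were 0.0635% (0.0480 to 0.0839%), 0.0386% (0.0328 to 0.0454%) and 0.0784% (0.0630 to 0.0975%). Library 2 lay below the other two, while the intervals of libraries 1 and 3 overlapped. MiR-148b ranked 118, 111 and 110, so its place among the listed miRNAs was close in the 3 libraries although its share was not. For each molecule of miR-148b there were 82.7, 147 and 58.9 molecules of miR-148a. The 95% intervals of these ratios were 62.5 to 110, 125 to 173 and 47.2 to 73.4, and the interval of library 2 did not overlap the other two. By mean share, miR-658 was just above miR-148b and miR-12055 just below it. MiR-148b had more UMIs than each of them in 2 of 3 libraries (p = 1 for each by the exact sign permutation test, two-sided), so its rank among these neighbours was not resolved.

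MiR-152, the member within COPZ2, was not listed in library 1 and had 82 and 16 UMIs in libraries 2 and 3. Its shares were 0.0220% (0.0177 to 0.0273%) in library 2 and 0.0157% (0.00965 to 0.0255%) in library 3, and these intervals overlapped. At the share of library 2, library 1 would hold 17.0 UMIs of miR-152, and at the share of library 3 it would hold 12.1 UMIs. Both lie near the listing minimum, so a lower level in library 1 could not be resolved at this depth. MiR-152 had 0.569 UMIs for each UMI of miR-148b in library 2 (0.435 to 0.746) and 0.200 in library 3 (0.118 to 0.340). In library 1 this ratio was at most 0.204, a limit that takes no account of counting error. The ratio of the COPZ2 member to the COPZ1 member was thus higher in library 2 than in library 3, with intervals that did not overlap. To miR-148a, in contrast, its ratio was 0.00387 (0.00312 to 0.00481) in library 2 and 0.00340 (0.00209 to 0.00552) in library 3, which overlapped.

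MiR-148d, annotated opposite miR-148a, was the second most abundant of the 5 entries. It had 857, 2484 and 645 UMIs in libraries 1, 2 and 3, with shares of 1.11% (1.04 to 1.19%), 0.666% (0.640 to 0.692%) and 0.632% (0.585 to 0.683%). Library 1 was the highest, and libraries 2 and 3 overlapped. MiR-148d ranked 13, 19 and 19 and outnumbered miR-148b by 17.5, 17.3 and 8.06 times. Its neighbours by mean share were miR-141, an epithelial miRNA of the miR-200 family, and miR-92a, and it was higher than each of them in library 1 only. The sources used here do not say whether the counting used strand, so molecules of miR-148a and miR-148d cannot be told apart with certainty.

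MiR-148c, annotated opposite miR-152, was among the rare miRNAs. It had 14, 52 and 15 UMIs, and its shares of 0.0181% (0.0108 to 0.0304%), 0.0139% (0.0106 to 0.0183%) and 0.0147% (0.00891 to 0.0243%) overlapped in all 3 libraries. It ranked 390, 222 and 480 of the listed miRNAs. Of the 5 entries, 4 were listed in every library, and 58.4% of all listed miRNAs were.

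**Figure D2:**
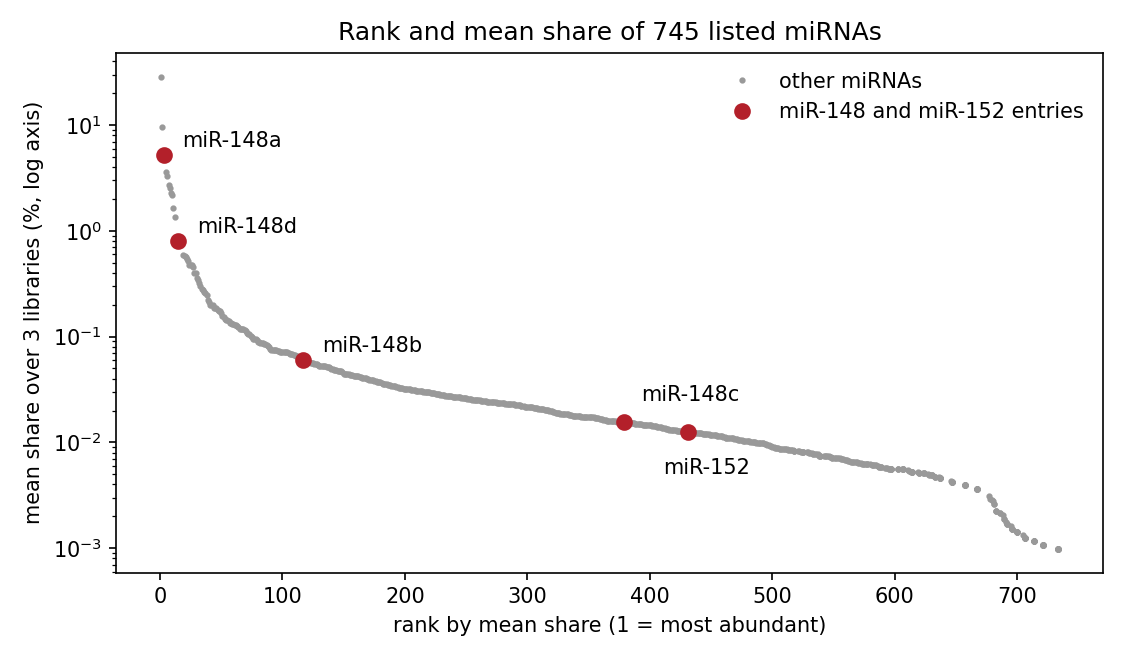
Mean share over the 3 libraries (percent, log axis) against rank for the 745 miRNAs listed in at least 1 library, with the 5 entries of the family in red and a library without a listed count entered as 0. MiR-148a and miR-148d have ranks 3 and 15, and miR-148b, miR-148c and miR-152 have ranks 117, 379 and 431.

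By mean share the order was miR-148a, miR-148d, miR-148b, miR-148c and miR-152. The first 3 steps of this order were seen in each of the 3 libraries. Within libraries, miR-148a had 4.73 to 8.52 times the UMIs of miR-148d, miR-148d had 8.06 to 17.5 times those of miR-148b, and miR-148b had 2.77 to 5.33 times those of miR-148c. By the exact sign permutation test (two-sided), each step had p = 0.25 (adjusted p = 0.333 over 4 steps), the smallest value that 3 libraries allow. The last step rests on entering miR-152 as 0 in library 1. In libraries 2 and 3, where both were listed, miR-152 had more UMIs than miR-148c (exact test, p = 0.5, the smallest for 2 libraries), and in library 3 the difference was 16 against 15 UMIs.

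By their counts, the entries on opposite strands stood in different proportion at the loci of miR-148a and miR-152. Whether the counting used strand is not stated, which limits these ratios and those of the other opposite-strand pairs below. The ratio of miR-148d to miR-148a was 0.211 (0.196 to 0.228), 0.117 (0.113 to 0.122) and 0.137 (0.126 to 0.149) in libraries 1, 2 and 3. The ratio of miR-148c to miR-152 was 0.634 (0.449 to 0.896) in library 2 and 0.938 (0.470 to 1.87) in library 3. In library 1 it was at least 1.40, since miR-152 had at most 10 UMIs there against 14 of miR-148c. Unlike the intervals, this limit takes no account of counting error in these few UMIs. In libraries 2 and 3 the intervals of the 2 loci did not overlap. At the miR-148a locus the lesser entry was miR-148d in each library, while at the miR-152 locus the interval of library 3 included equal counts.

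Other abundant pairs on opposite strands were compared with miR-148d and miR-148a. MiR-3596 is annotated opposite let-7b and miR-26c opposite miR-26a. The log2 ratio of miR-148d to miR-148a minus that of miR-3596 to let-7b was -0.15 ± 0.07 (SD, n = 3 libraries), and minus that of miR-26c to miR-26a it was -0.53 ± 0.06. Both differences were below 0 in 3 of 3 libraries. The exact sign permutation test gave p = 0.25 for each, the smallest it allows with 3 libraries (adjusted p = 0.25 over both). Of the 3 libraries, the highest ratio was that of library 1 in all of these pairs.

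**Figure D3:**
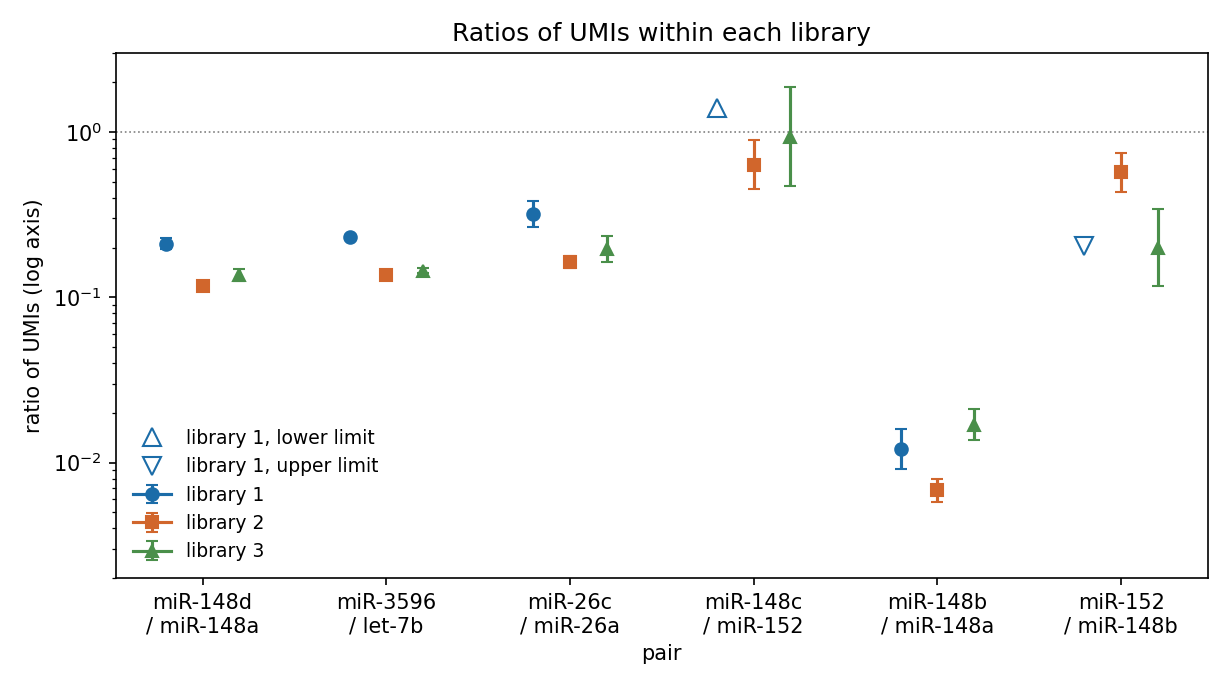
Ratio of UMIs within each library (log axis) for 6 pairs of miRNAs, with 95% intervals from the Wilson interval of the share. Open triangles are limits for library 1, where miR-152 was not listed, and take no account of counting error. They are at least 1.40 for miR-148c to miR-152 and at most 0.204 for miR-152 to miR-148b. The ratio of miR-148d to miR-148a lies between 0.117 and 0.211, below the ratio of miR-148c to miR-152.

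The entries differed in which library was highest. Fisher's exact test compared a miRNA's UMIs with all other mature UMIs for each pair of libraries, with Benjamini-Hochberg adjustment over 1447 tests of all miRNAs. It compares these libraries, not conditions. Of 13 tests of the 5 entries, 7 passed an adjusted p of 0.05 (53.8%), against 62.5% of the tests of all miRNAs, so the entries were not called more often than miRNAs in general. Between libraries 2 and 1, miR-148a was higher in library 2 by 0.11 on the log2 scale (adjusted p = 1.03e-05), as were 9.44% of all miRNAs tested. MiR-148b and miR-148d were lower in library 2, with log2 ratios of -0.72 (adjusted p = 0.00781) and -0.74 (adjusted p = 9.45e-34), as were 72.1% of all miRNAs. MiR-148c had a log2 ratio of -0.38 and did not pass (adjusted p = 0.494).

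Between libraries 3 and 1, miR-148a was lower in library 3 (log2 ratio -0.19, adjusted p = 5.21e-09) and miR-148d was lower as well (-0.81, adjusted p = 2.92e-26), while 14.6% of all miRNAs were lower and 14.8% were higher. MiR-148b (0.30, adjusted p = 0.320) and miR-148c (-0.30, adjusted p = 0.654) did not pass. Between libraries 3 and 2, miR-148a was lower in library 3 (-0.30, adjusted p = 1.16e-39), as were 7.49% of all miRNAs. MiR-148b was higher in library 3 (1.02, adjusted p = 4.92e-06), as were 67.2% of all miRNAs. MiR-148d (-0.07, adjusted p = 0.318), miR-152 (-0.49, adjusted p = 0.341) and miR-148c (0.08, adjusted p = 0.914) did not pass. In the pairs with library 2, the calls of miR-148b and miR-148d went the way of most miRNAs tested, and those of miR-148a did not. The miRNAs tested were those listed in both libraries of a pair. A count of 11 UMIs, the lowest listed, is 0.0142% of library 1 and 0.0108% of library 3 but 0.00295% of library 2. The rare miRNAs tested in pairs with library 2 may thus favour those high in the other library. How far this moved the percentages of all miRNAs was not tested.

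The direction of these differences depended on the scaling of library 2. By shares of the mature UMIs, the median miRNA of the 435 listed in every library had a log2 ratio of -1.39 between libraries 2 and 1, and relative to it all 4 entries listed in both were higher in library 2. The listing minimum of 11 UMIs is a share of 0.0142% in library 1 and 0.00295% in library 2. The 435 may thus favour rare miRNAs that were high in library 1. How far this moved the median, or the TMM and DESeq2 totals, was not tested. With totals scaled by TMM, a method that sets the bulk of the miRNAs equal between libraries, that median was -0.03. MiR-148a was then higher in library 2 than in library 1 by 1.47 on the log2 scale, miR-148c by 0.97, miR-148b by 0.64 and miR-148d by 0.62. DESeq2 size factors gave 1.45, 0.96, 0.62 and 0.60. With mature and Rfam UMIs as the total, the values were 1.30, 0.81, 0.47 and 0.45. With mature UMIs without let-7b they were 0.16, -0.33, -0.67 and -0.69. MiR-148a was therefore higher in library 2 than in library 1 under each of the 5 scalings. MiR-148b, miR-148c and miR-148d were lower in library 2 with mature UMIs, with or without let-7b, and higher with the other 3 scalings. A change of totals moves every miRNA by the same amount, so this turn is not particular to these entries. The order of the 4 entries by this ratio, with miR-148a the highest and miR-148c the second, needs no total. It is therefore the same under each scaling by construction. The place of miR-148c rests on 14 UMIs in library 1 and was not resolved from that of miR-148b. The ratio of miR-148c to miR-148b was 0.286 (0.159 to 0.513) in library 1 and 0.361 (0.263 to 0.495) in library 2, and these intervals overlapped.

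**Figure D4:**
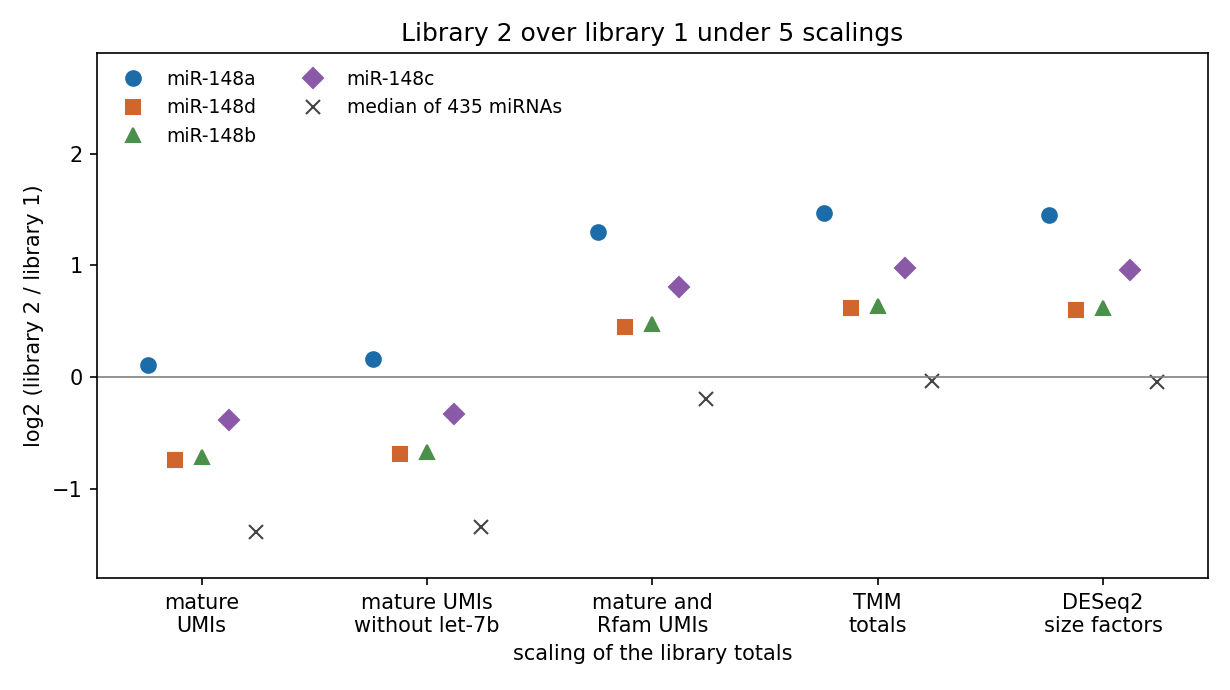
Log2 ratio of library 2 over library 1 for the 4 entries listed in both and for the median of the 435 miRNAs listed in every library, under 5 scalings of the library totals. MiR-148a lies above 0 in each, from 0.11 to 1.47, while miR-148b, miR-148c and miR-148d lie below 0 with mature UMIs, with or without let-7b, and above 0 with the other 3 scalings.

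As a share of the mature UMIs, miR-148a varied little between libraries. Its coefficient of variation (CV, the SD over the mean) was 10.3%, the 18th lowest of 435 miRNAs, whose median was 50.8%. Counting error alone would give 1.30%. Of the 58 miRNAs that reached 100 UMIs in all 3 libraries, it was the 12th lowest, and their median was 24.96%. This rests on the total used: with TMM the CV of miR-148a was 66.8%, the 367th lowest, against a median of 36.8%. MiR-148d had a CV of 33.2% with a counting error of 3.22%, and 3.65% without library 1. Among the same 58 miRNAs it was the 38th lowest, above their median of 24.96%. MiR-148b had 33.4% with a counting error of 11.5%, and 14.9% without library 2. The CV of miR-148c, 14.3%, was smaller than its counting error of 22.9%, and that of miR-152 over libraries 2 and 3, 23.6%, was close to its counting error of 19.3%. The spread of these rare entries was thus not resolved from counting error.

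**Figure D5:**
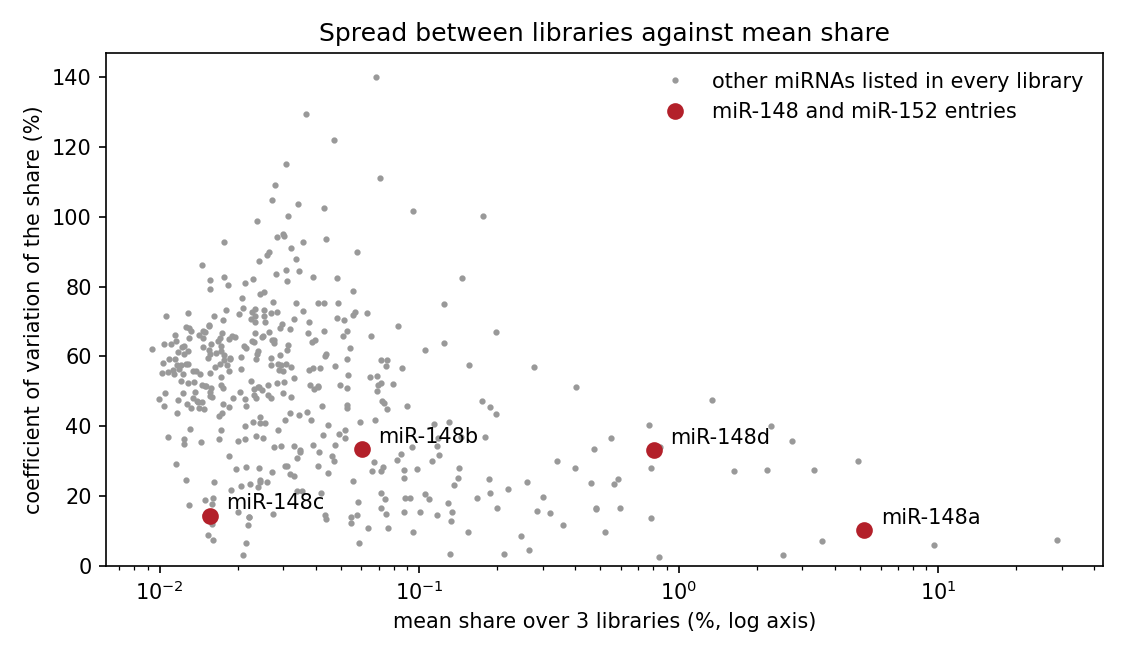
Coefficient of variation of the share (percent) against mean share (percent, log axis) for the 435 miRNAs listed in every library, with the 4 entries of the family among them in red. MiR-148a (10.3%) and miR-148c (14.3%) lie low, and miR-148b (33.4%) and miR-148d (33.2%) lie below the median of 50.8% of all 435. MiR-148d lies above the median of 24.96% of the 58 miRNAs that reached 100 UMIs in every library.

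The miRNAs whose levels moved most like miR-148a between libraries were sought among the other 57 miRNAs that reached this count. The measure was the Euclidean distance between log2 shares centred on their mean, which depends only on ratios within libraries and not on library totals. The nearest was miR-21-5p, a miRNA found in many tissues, at a distance of 0.03, followed by miR-3432a at 0.04, let-7b at 0.07, let-7c at 0.15 and let-7a-5p at 0.17. The median distance was 0.52. MiR-21-5p had 0.0691, 0.0701 and 0.0680 UMIs per UMI of miR-148a in libraries 1, 2 and 3, a range of 1.03-fold. Let-7b had 5.44, 5.46 and 5.80, a range of 1.07-fold. The ratio to miR-148a stayed within 1.2-fold for 8 of the 57 miRNAs, and the median range was 1.60-fold. MiR-148d, whose gene overlaps that of miR-148a, was the 36th of the 57 at a distance of 0.62, with a 1.80-fold range. Whether the counting used strand is not stated, which limits this comparison of miR-148d with miR-148a too. With 3 libraries these distances and ranges are a description only.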

How the data were processed

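Small RNA libraries of BM-EVs were made by the authors with the QIAseq miRNA Library Kit, trimmed, quality-checked and mapped to miRBase first and Rfam second. Tools named in the submitters' processing notes were cutadapt 2.7, Bowtie 1.2.2 and FastQC. The deposited values were raw UMI counts of mature miRNAs and Rfam sequences, not normalized by the authors, for 3 libraries of 1 group, numbered by the replicate in the sample labels. The sources used here do not state database versions, allowed mismatches or the use of strand, and near-identical miRNAs may share UMIs. File names and labels number the libraries differently, and the labels were followed.

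Shares were taken of each library's mature UMIs, with Wilson 95% intervals for counting error only. An unlisted miRNA was entered as 0 in means and ranks and left out of ratios. Neighbours in order were compared with exact sign permutation tests, and libraries with Fisher's exact test, adjusted over all miRNAs rather than over the 5 entries as first planned. TMM (edgeR 4.0.16) and DESeq2 1.42.0 size factors were alternative scalings. The Fisher table and the CV were also run on simulated counts. Those for the Fisher table held counting error and planted changes only, without other variation between libraries or a listing minimum. They therefore do not bear on how many tests passed in the real libraries. Named miRNAs were the 5 entries, their neighbours in rank, the 5 nearest to miR-148a, other opposite-strand pairs and up to 4 of each marker list. The entries and lists were chosen with earlier results of these data known. A grouping of all miRNAs by seed was not run. Overlapping and nearest genes were found from the gene positions of RefSeq (ARS-UCD2.0), which are not printed because the build behind the counts is not stated. R 4.3.3, Python 3.11.15, scipy 1.17.1 and matplotlib 3.10.9 were used. The alternatives were other totals, pooled UMIs, unlisted entries at 10 UMIs, a minimum of 30 UMIs and leaving out each library.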

Additional observations from a re-analysis of the deposited data

How the results depend on the processing

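The mean share of miR-148a, 5.18%, was 0.592% of mature and Rfam UMIs, 7.29% of mature UMIs without let-7b, 5.90% with TMM and 5.82% with DESeq2 size factors. The sum of the 5 entries, 6.07%, was 0.686%, 8.54%, 6.83% and 6.74% in these settings, and the sum without miR-148c and miR-148d, 5.25%, was 0.600%, 7.39%, 5.98% and 5.90%. The first 2 settings change the denominator by construction. Of the 4 steps in the order of the entries, 3 were kept with pooled UMIs, in library 2 alone and in library 3 alone, where miR-152 lay above miR-148c. The CV of miR-148a, 10.3%, was 66.8% with TMM and 63.5% with DESeq2 size factors, and 5.50% to 14.6% when 1 library was left out. Of the tests between libraries, 7 passed, against 8 with either other denominator (chosen after seeing the data) and 2 to 3 when 1 library was left out, which leaves a single pair of libraries. Of the remaining values, 56 stayed within the SD between libraries (within 1.5 times for a CV) and 16 did not. Leaving out 1 library cannot move a mean by that SD, so these checks of shares and ratios could not fail. Entering unlisted miRNAs at 10 UMIs changes nothing for entries listed in every library. The SD of miR-152, 0.0113%, is so wide that even 0.00174%, with mature and Rfam UMIs as the total, was within it. The count of 56 is thus not a measure of robustness. No paired analysis was possible because all 3 libraries belong to 1 group. Library 1, with 77225 mature UMIs, sets the upper limit for miR-152, which was not listed there.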

Other observations

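As a share of all mature and Rfam UMIs, which follows how much of each library was miRNA, miR-148a made up 0.372%, 0.916% and 0.488% in libraries 1, 2 and 3. The mature UMIs were 7.08%, 16.2% and 10.6% of these totals. On this scale miR-148d made up 0.0786%, 0.108% and 0.0668%, and miR-148b 0.00449%, 0.00623% and 0.00828%. The highest of the 3 libraries was library 2 for miR-148a and miR-148d and library 3 for miR-148b. For miR-148b this rests on 144 and 80 UMIs in libraries 2 and 3, and no intervals were computed on this scale.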
